A study of Mus musculus with 26 samples.

Results

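The genes described here lie in 2 stretches of the mouse genome, 130 to 140 Mb of chromosome 4 and 30 to 40 Mb of chromosome 15, in the mm10 build. They were taken from the deposited count table as every row that starts in either stretch and reaches 1 CPM (reads scaled to a common library size) in at least 5 libraries, without Hmgn2, Sesn2, Rcc1, C1qa, C1qb, C1qc and genes whose symbols begin with Rpl or Rps. That gave 160 members of the 24091 rows of the table, 124 of 204 rows on chromosome 4 and 36 of 71 rows on chromosome 15. The symbol condition also removed Rps6ka1, a protein kinase gene, so that 9 rows that met the level condition were left out. The 2 stretches were chosen by the number of genes called in them between the endothelial knockout and the Spred1 wild-type libraries. Values from the endothelial knockout libraries are therefore given as a description. At the edge of the level condition, Nkain1 (5th-highest library 1.01 CPM) and Lactbl1 (1.12 CPM) were inside, and Smpdl3b (0.849 CPM) and Snora44 (0.902 CPM) were outside.

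All libraries are bulk RNA-seq of LSK cells, the lineage-negative, Sca-1+, c-Kit+ bone marrow fraction that holds haematopoietic stem and progenitor cells, taken from mice with chronic myeloid leukaemia (CML). Every mouse carried SCLtTA/BCR-ABL, which drives the BCR-ABL oncogene in blood stem and progenitor cells, on a C57BL/6 background. The groups were EC KO, with Spred1 deleted in endothelial cells (5 libraries); global KO, with Spred1 deleted throughout the animal (6 libraries); HSC KO, with Spred1 deleted in haematopoietic cells by Mx1-cre (5 libraries); HSC wt, its wild-type control (5 libraries); and Spred1 wt (5 libraries). Mice of both HSC groups had been injected with poly(I:C), 7 doses of 250 µg spaced 2 days apart, to switch on Mx1-cre, which is also active outside blood cells. The labels used here do not name the promoter of the endothelial Cre and give no ages. Libraries of the study's own endothelial control, EC wt, were not analysed here, and Spred1 wt stands in for it. Spred1 encodes an inhibitor of RAS-ERK signalling.

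The members belong together by position, not by function. Genes that lie side by side on a chromosome can share a promoter region, enhancers or a chromatin domain, and they are inherited together, while most are transcribed from a start site of their own. The mouse chromosome 4 stretch is a gene-dense region. It holds splicing factors, chromatin regulators such as Arid1a and Kdm1a, the haematopoietic transcription factor gene Runx3 and the GTPase gene Cdc42. The chromosome 15 stretch is sparser and holds the poly(A)-binding protein gene Pabpc1, the RNA polymerase subunit gene Polr2k and the Wnt receptor gene Fzd6.

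Total counts per library lay between 18487600 and 24114800 in EC KO, and between 14816100 and 26714300 over all groups. Spred1 itself was at 57.9 to 83.4 CPM in EC KO and 22.3 to 45 CPM in global KO, against 92.8 to 149 CPM in Spred1 wt. HSC KO libraries had 28.7 to 47.2 CPM of Spred1, against 96.9 to 110 CPM in the HSC wt libraries. The female transcript Xist reached 500 CPM in 2 EC KO, 3 HSC KO and 2 HSC wt libraries and in 0 global KO and 0 Spred1 wt libraries. The 8 LSK and stem cell markers were all detected and summed to 1780 to 2290 CPM in EC KO and 1680 to 2800 CPM in Spred1 wt, and Kit differed by -0.85 on the log2 scale between them. Transcripts of mast cells and basophils summed to 1940 to 4960 CPM in EC KO and 2790 to 15900 CPM in Spred1 wt, with 0 of the 10 markers at 0 throughout either group. In bulk libraries, fewer cells of a type and less RNA per cell cannot be told apart. The labels count mice for the HSC and EC groups and give no such count for the others, so that each library is read as 1 mouse. A p-value sets the difference between groups against the spread between libraries.

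In EC KO against Spred1 wt, 42 of the 160 members were called, 19 higher and 23 lower, where called means that edgeR's quasi-likelihood test, with Benjamini-Hochberg adjustment across the 13379 genes tested, gave an adjusted p under 0.05. The background over all genes tested was 7.96% called, 3.49% higher and 4.47% lower, against 26.2% of the members. All 160 members passed the filter on low counts. On chromosome 4, 29 of 124 were called, 14 higher and 15 lower. On chromosome 15, 13 of 36 were called, 5 higher and 8 lower. These counts restate what chose the stretches. A fit of EC KO and Spred1 wt alone called 26 members, all of them among the 42, and 2.57% of the genes it tested.

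**Figure D1:**
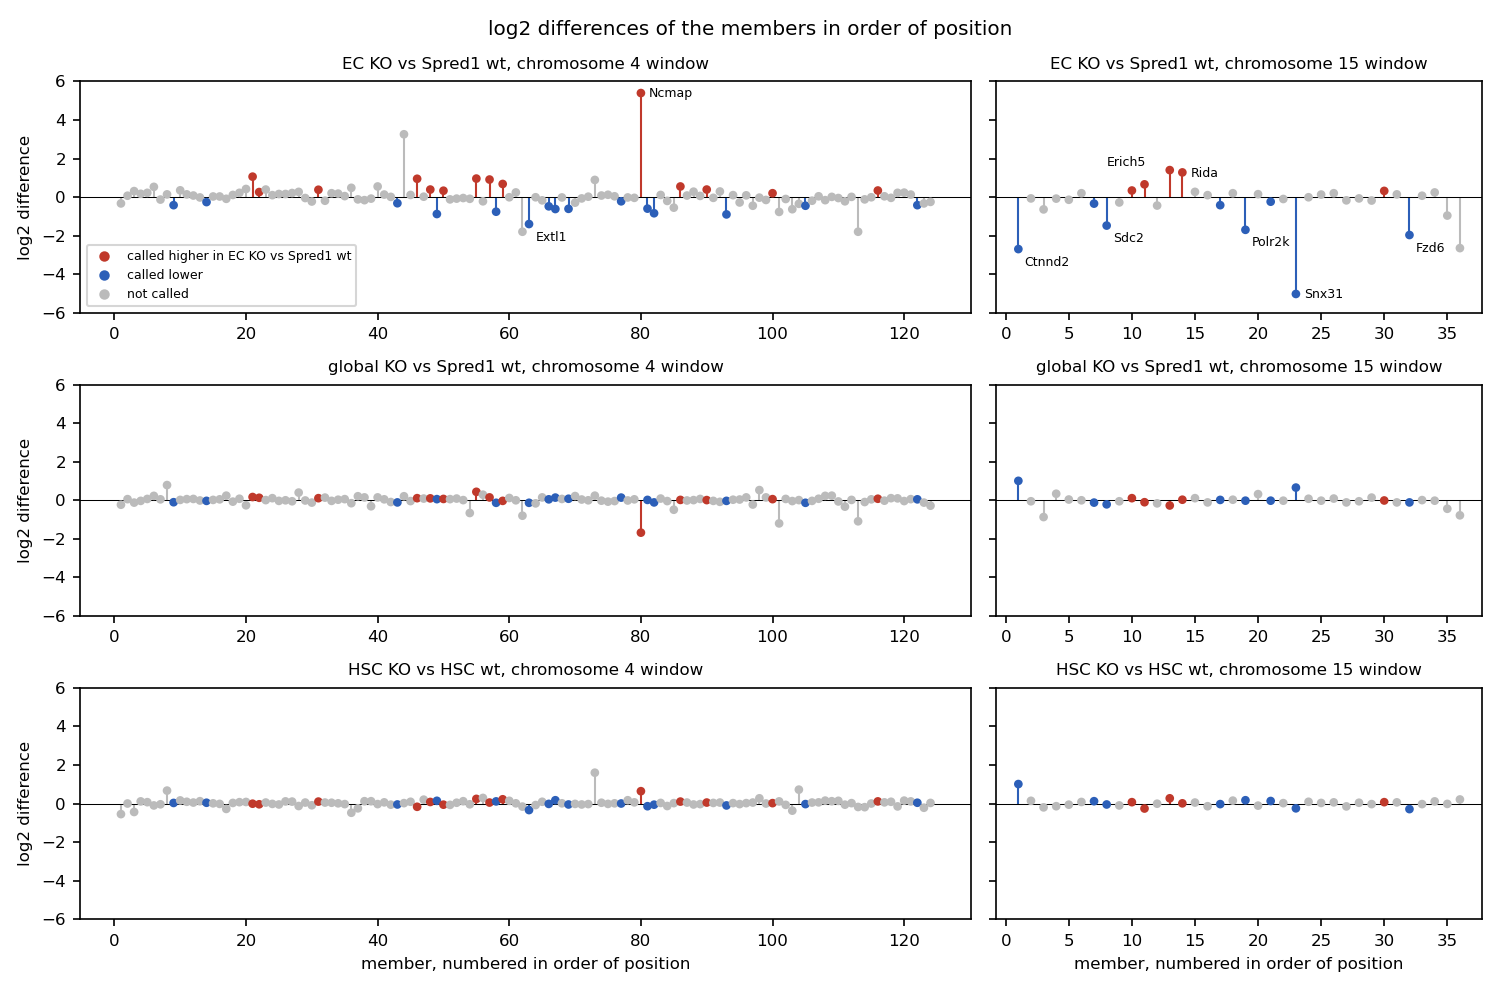
Log2 difference (vertical axis) of each member in order of position (horizontal axis, member number) on chromosome 4 (left) and chromosome 15 (right), for EC KO against Spred1 wt (top), global KO against Spred1 wt (middle) and HSC KO against HSC wt (bottom). Colours in every row mark the 42 members called in EC KO against Spred1 wt, 19 higher (red) and 23 lower (blue), and 0 members were called in the middle and bottom rows.

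The difference of largest size on chromosome 4 was that of Ncmap, which encodes a membrane protein of Schwann cells, the myelinating cells of peripheral nerves. Ncmap had 7.94, 5.68, 8.75, 5.69 and 7.5 CPM in EC KO, against 0.193, 0.095, 0.387, 0.129 and 0 CPM in Spred1 wt. Its level over all 21 libraries outside EC KO was at most 0.387 CPM, with 49 reads in all, against 779 reads in the 5 EC KO libraries. The fitted log2 difference was 5.40 (SE 0.508), and the 5 EC KO libraries lay apart from every other library. Only those 5 libraries reached 1 CPM, so Ncmap met the level condition through EC KO alone. Its separation from the other libraries follows from that condition and is no separate result. The next 2 members along the chromosome were lower in EC KO. Rcan3, a regulator of the phosphatase calcineurin, had 14.9, 13.9, 16, 15.9 and 18.4 CPM in EC KO, against 23.8, 26.4, 29.3, 20.6 and 21.2 CPM in Spred1 wt (log2 -0.60, SE 0.106). Nipal3, a member of the NIPA magnesium transporter family, had 42.1, 37, 31.2, 35.1 and 41 CPM in EC KO, against 53.9, 63.2, 89.6, 56.1 and 73.4 CPM in Spred1 wt (log2 -0.84, SE 0.126). Neither gene's EC KO range overlapped any of the 21 other libraries. All 3 genes lie on the minus strand, Ncmap at chr4:135369577-135398227, Rcan3 at chr4:135412309-135433805 and Nipal3 at chr4:135445420-135494504.

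The promoters of these adjacent genes with opposite directions show what sequence stands in front of each. They are given 5′ to 3′ along the gene from RefSeq (GRCm38.p6), from 250 bases before to 50 bases after the start: Ncmap at chr4:135398178-135398477, Rcan3 at chr4:135433756-135434055 and Nipal3 at chr4:135494529-135494828, all on the minus strand. Capitals mark matches, on either strand, to the GC box GGGCGG and the CCAAT box CCAAT.
Ncmap: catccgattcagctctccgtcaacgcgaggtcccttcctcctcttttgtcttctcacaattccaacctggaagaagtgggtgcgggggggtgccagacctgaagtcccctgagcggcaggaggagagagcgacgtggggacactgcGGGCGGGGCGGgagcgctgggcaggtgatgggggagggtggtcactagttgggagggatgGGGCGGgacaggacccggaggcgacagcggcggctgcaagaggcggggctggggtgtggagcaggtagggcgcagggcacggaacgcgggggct
Rcan3: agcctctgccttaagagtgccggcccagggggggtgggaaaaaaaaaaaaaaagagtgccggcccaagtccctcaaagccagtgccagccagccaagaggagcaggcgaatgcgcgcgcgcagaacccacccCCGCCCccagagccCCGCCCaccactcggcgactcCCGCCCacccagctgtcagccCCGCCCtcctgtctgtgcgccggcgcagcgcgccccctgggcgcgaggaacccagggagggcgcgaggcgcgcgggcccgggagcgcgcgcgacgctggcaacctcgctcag
Nipal3: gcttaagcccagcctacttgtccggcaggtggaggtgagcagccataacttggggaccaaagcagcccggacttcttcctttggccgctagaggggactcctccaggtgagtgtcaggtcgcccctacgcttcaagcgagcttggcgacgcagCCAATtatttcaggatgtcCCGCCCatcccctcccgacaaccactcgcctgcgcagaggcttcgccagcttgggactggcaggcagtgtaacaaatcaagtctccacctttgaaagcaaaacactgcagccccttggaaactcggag
The Ncmap window held 3 GC box matches and the Rcan3 window 4, while the Nipal3 window held 1 GC box and 1 CCAAT box. The first 2 matches of Ncmap share bases. RefSeq lists 2 promoters for Ncmap and 2 for Nipal3. For each gene the promoter nearest its deposited start is shown, 74 bases from it in Nipal3, and the other was not printed. Of 32851 promoters in the RefSeq table, 35.7% held a GC box and 37.4% a CCAAT box on either strand. Entries were found for 107 of the 160 members, 102 on chromosome 4 and 5 on chromosome 15, and among their 143 promoters 63.6% held a GC box and 34.3% a CCAAT box. The TATA box TATAAA was in 5.59% of these against 13.6% of all promoters, the E box CACGTG in 9.09% against 7.15%, and the ETS motif CCGGAAG in 17.5% against 8.86%. The sets are unlike, since members had to reach 1 CPM while the RefSeq table takes promoters whatever their gene's level. The part of expression level in these shares was not tested.

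A 2nd run of adjacent members alternated in direction. Ubxn11, a UBX domain protein gene, had 17.8, 13.9, 13.7, 15.7 and 15.4 CPM in EC KO, against 8.11, 9.12, 6.91, 8.02 and 8.98 CPM in Spred1 wt (log2 0.91, SE 0.121). Sh3bgrl3, a small thioredoxin-like protein gene that lies 0.626 kb beyond the end of Ubxn11 on the other strand, had 155, 132, 146, 137 and 136 CPM in EC KO, against 168, 189, 345, 242 and 261 CPM in Spred1 wt (log2 -0.76, SE 0.15). Ubxn11 was above, and Sh3bgrl3 below, all 21 libraries outside EC KO. Cep85, a centrosomal protein gene, had 61, 62.4, 56.8, 52.1 and 56.5 CPM in EC KO, against 41, 32.1, 35.6, 37.4 and 35.7 CPM in Spred1 wt (log2 0.68, SE 0.134). Its EC KO range lay above Spred1 wt and overlapped HSC KO, which reached 58.3 CPM. The Spred1 wt library with 345 CPM of Sh3bgrl3 also held 15900 CPM of mast cell and basophil transcripts, the highest sum of all libraries, and the part of those cells in the difference was not tested.

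The promoters of this run, shown because neighbours in it differed in opposite directions, lie at chr4:134102333-134102632 on the plus strand for Ubxn11, chr4:134128684-134128983 on the minus strand for Sh3bgrl3 and chr4:134187036-134187335 on the minus strand for Cep85 (RefSeq, GRCm38.p6). Capitals mark the same motifs on either strand and, in Ubxn11, the E box CACGTG, which reads alike on both strands.
Ubxn11: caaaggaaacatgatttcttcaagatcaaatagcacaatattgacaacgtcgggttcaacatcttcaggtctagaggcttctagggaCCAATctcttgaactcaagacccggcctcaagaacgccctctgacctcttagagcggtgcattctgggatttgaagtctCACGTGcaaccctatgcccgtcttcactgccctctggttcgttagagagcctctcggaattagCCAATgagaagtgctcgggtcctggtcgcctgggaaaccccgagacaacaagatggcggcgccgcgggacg
Sh3bgrl3: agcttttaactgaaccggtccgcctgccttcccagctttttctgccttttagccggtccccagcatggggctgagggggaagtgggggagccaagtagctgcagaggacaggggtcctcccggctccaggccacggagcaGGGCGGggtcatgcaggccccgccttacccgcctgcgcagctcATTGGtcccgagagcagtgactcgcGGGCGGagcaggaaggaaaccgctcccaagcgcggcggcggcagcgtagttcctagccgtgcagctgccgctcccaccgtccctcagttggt
Cep85: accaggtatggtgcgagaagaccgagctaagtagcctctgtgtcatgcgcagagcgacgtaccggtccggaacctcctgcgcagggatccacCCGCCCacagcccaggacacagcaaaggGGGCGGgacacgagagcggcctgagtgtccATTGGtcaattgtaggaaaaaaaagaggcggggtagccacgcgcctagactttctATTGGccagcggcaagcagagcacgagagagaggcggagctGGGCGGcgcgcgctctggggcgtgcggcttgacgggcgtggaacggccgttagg
Ubxn11 had 2 CCAAT boxes, 1 E box and 0 GC boxes, Sh3bgrl3 had 1 CCAAT box and 2 GC boxes, and Cep85 had 2 CCAAT boxes and 3 GC boxes. Among the higher members, Ncmap and Ubxn11 had different matches, while Cep85 had as many GC boxes as Ncmap and as many CCAAT boxes as Ubxn11. Among the lower members, Nipal3 and Sh3bgrl3 each had 1 CCAAT box and at least 1 GC box, while Rcan3 had 4 GC boxes and 0 CCAAT boxes. A link of motifs to direction was not tested.

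Single members elsewhere on chromosome 4 also lay apart from all other libraries. Zfp46, a zinc finger protein gene, had 12.1, 13.7, 12.5, 13.2 and 14.8 CPM in EC KO, against 22, 29.3, 28.8, 22 and 22.7 CPM in Spred1 wt (log2 -0.90, SE 0.106). Selenon, a selenoprotein of the endoplasmic reticulum, had 49.3, 45.9, 42.2, 45 and 51.1 CPM in EC KO, against 67.7, 77.4, 82.7, 64.1 and 68.7 CPM in Spred1 wt (log2 -0.61, SE 0.085). Fuca1, a lysosomal fucosidase, had 65, 69.8, 72.4, 73.5 and 72.1 CPM in EC KO, against 47, 43.3, 59.4, 49.7 and 43.5 CPM in Spred1 wt (log2 0.55, SE 0.081). Fuca1 stood above, and Zfp46 and Selenon below, each of the 21 libraries outside EC KO. Sfn, which encodes the adaptor protein stratifin, averaged 4.44 ± 0.91 CPM in EC KO and 8.26 ± 1.04 CPM in Spred1 wt (SD, n = 5 each). Its neighbours Gpn2, a GTPase gene, and Zdhhc18, a palmitoyltransferase gene, differed in the other direction, by 0.39 and 0.33 on the log2 scale.

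Over the chromosome 15 members the median absolute log2 difference was 0.260, against 0.199 over those of chromosome 4. Polr2k, a small subunit shared by the nuclear RNA polymerases, had 5.11, 5.54, 7, 5.43 and 4.52 CPM in EC KO, against 17.7, 17, 18.6, 21 and 16.3 CPM in Spred1 wt (log2 -1.70, SE 0.106). Rida, an enzyme that clears reactive imines formed in amino acid metabolism, had 31.1, 27.8, 34.8, 37.5 and 33.7 CPM in EC KO, against 16, 12, 12, 14.9 and 13.6 CPM in Spred1 wt (log2 1.28, SE 0.105). Both groups of values were tight and far apart. Over all 21 libraries outside EC KO, Polr2k lay between 14.9 and 21.1 CPM and Rida between 11.5 and 16 CPM.

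Fzd6, a Frizzled receptor for Wnt ligands, had 5.74, 4.27, 6.71, 6.27 and 9.88 CPM in EC KO, against 32.3, 33.8, 26.6, 16.2 and 21.2 CPM in Spred1 wt (log2 -1.97, SE 0.218). Snx31, a sorting nexin of the endosomal system, had 0, 0, 0, 3 and 2 reads in the 5 EC KO libraries, against 37, 53, 35, 10 and 18 reads in Spred1 wt. Both genes were below every library outside EC KO, where the lowest level was 16.2 CPM for Fzd6 and 0.647 CPM for Snx31. The fitted log2 difference of Snx31, -5.03 (SE 0.545), rests on those 5 reads. A count of 0 allows up to 3 reads in a library by counting error alone.

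Erich5 and Rida, which lie 10.1 kb apart on opposite strands, were both higher in EC KO. Erich5 had 1.7, 1.92, 2.19, 1.63 and 2.81 CPM in EC KO, against 1.03, 0.57, 0.387, 1.55 and 0.393 CPM in Spred1 wt (log2 1.40, SE 0.351). Laptm4b, a lysosomal and endosomal membrane protein, had 48.3, 52.3, 48.6, 47.2 and 39.9 CPM in EC KO, against 30.7, 32.3, 32.3, 27.5 and 27.7 CPM in Spred1 wt (log2 0.66, SE 0.14). These 2 and Rida were the 3 chromosome 15 members whose EC KO values all stood above the other 21 libraries. Vps13b, a large lipid transfer protein of the Golgi, averaged 153 ± 7.87 CPM in EC KO and 207 ± 10.4 CPM in Spred1 wt (SD, n = 5 each), and its highest EC KO value, 160 CPM, was under the lowest of the 21 others, 195 CPM. The remaining called members of chromosome 15 were Mtdh (log2 0.34) and Azin1 (0.32), which were higher, and Ctnnd2 (-2.70), Sdc2 (-1.48), Fam173b (-0.34) and Rnf19a (-0.24), which were lower. Ctnnd2 had only 23 reads in the 5 EC KO libraries together, at 0.0469 to 0.486 CPM, against 0.721 to 2.77 CPM in Spred1 wt. Mtdh encodes an RNA-binding protein studied in cancer, Azin1 an inhibitor of antizymes that raises polyamine synthesis, Ctnnd2 an adherens junction protein and Sdc2 a cell surface proteoglycan. Sdc2 was at 0.375 to 1.93 CPM in EC KO and 2.04 to 4.83 CPM in Spred1 wt, while libraries of global KO (from 0.849 CPM) and HSC KO (from 1.57 CPM) fell inside the EC KO range. Some of these calls depended on the libraries or on the settings used. Sdc2 was called in 9 of 20 alternatives. It was no longer called with no filter on low counts, with a sex covariate, in the fit of the 2 groups alone, in libraries without Xist, or without any 1 of EC KO replicates 1, 2, 3 or 4 or Spred1 wt replicates 1, 2 or 5, and its log2 difference lay between -1.79 and -1.17 over all alternatives. Azin1 was called in 6 of 20 (log2 0.25 to 0.38). Its call was lost under those 4 settings, with RLE normalization, with the CPM filter, and without any 1 of EC KO replicates 1 to 4 or Spred1 wt replicates 1, 2, 3 or 5. Fam173b was no longer called without EC KO replicate 3 or in the fit of the 2 groups alone (log2 -0.38 to -0.26 over all alternatives). Rnf19a was no longer called without EC KO replicate 4, with a sex covariate, against the mean of both wild-type groups or in libraries without Xist (-0.28 to -0.16). Erich5 was no longer called without Spred1 wt replicate 5, in the fit of the 2 groups alone or in libraries without Xist (1.22 to 1.78), and Ctnnd2 in libraries without Xist.

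**Figure D2:**
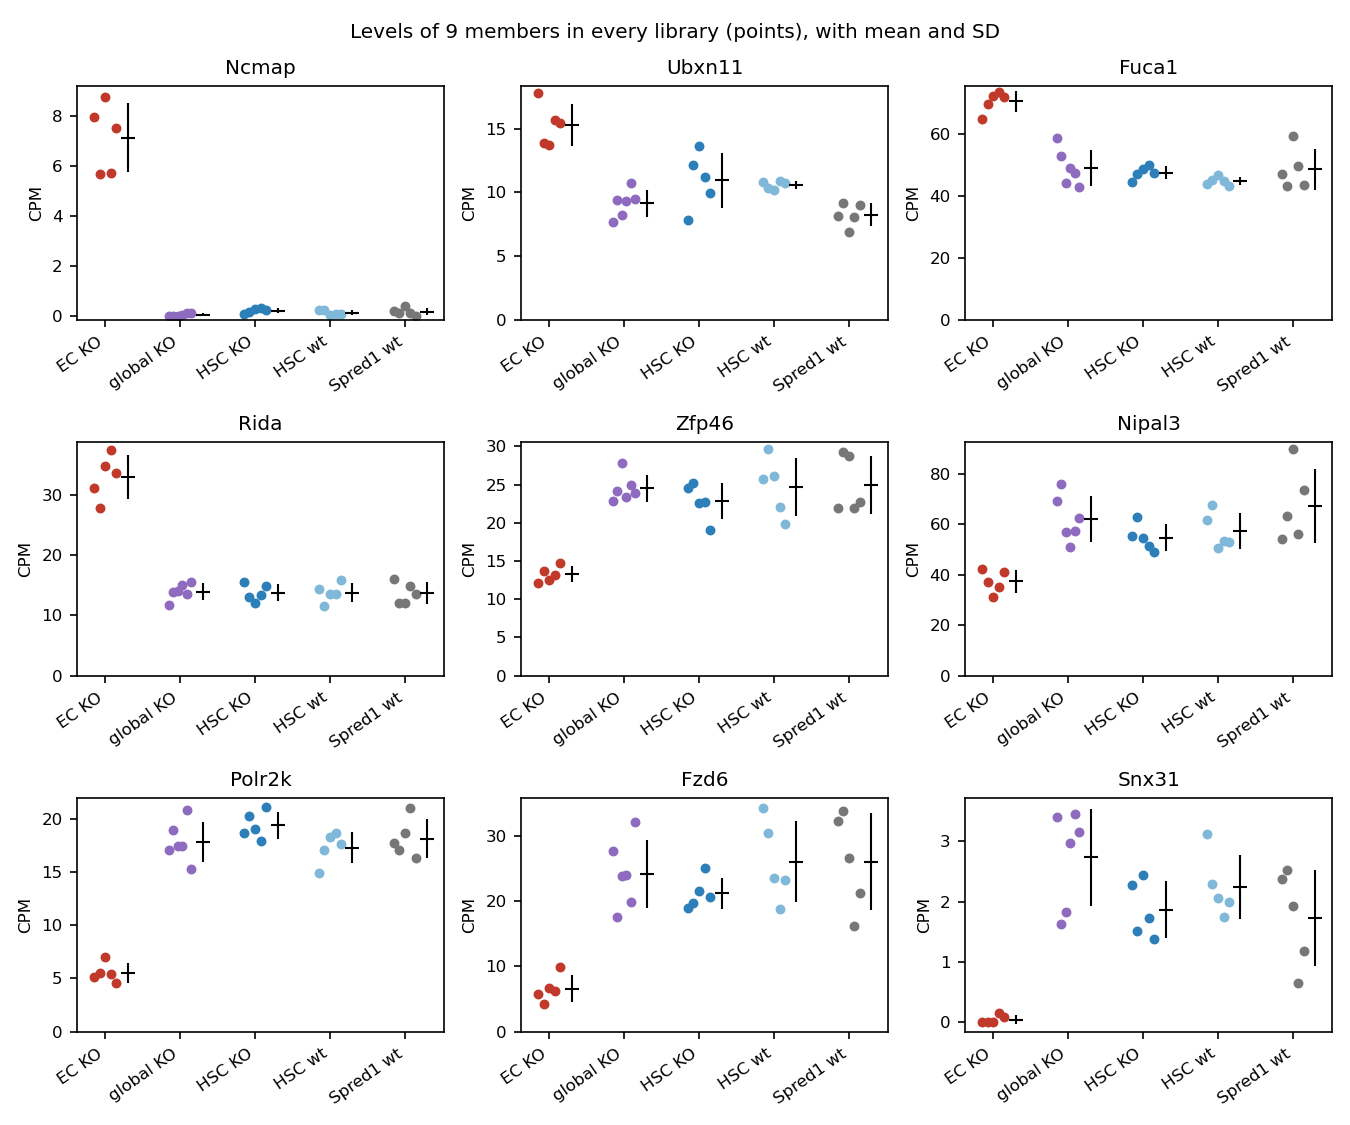
CPM (vertical axis, linear) of 9 members in each of the 26 libraries (points) in the 5 groups, with the mean and SD beside them. Ncmap, Ubxn11, Fuca1 and Rida lie higher, and Zfp46, Nipal3, Polr2k, Fzd6 and Snx31 lower, in all 5 EC KO libraries than in the 21 others.

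The members were also sorted by role, and the counts are read beside the share called over all genes. That background was 7.96%, 3.49% higher and 4.47% lower, and 26.2% of all members were called. No list was tested against these shares. Of 21 members for RNA processing and translation, 2 were called higher in EC KO, Gpn2 and Trnau1ap (log2 0.26), a factor for selenocysteine tRNA, and 0 lower. Pabpc1 and Cct5, the members of that list with the most reads, differed by -0.01 and 0.20 and were not called. Of 21 metabolic and mitochondrial members, 4 were called higher and 0 lower. These were Fuca1, Rida, Azin1 and Minos1 (log2 0.34), a subunit of the complex that shapes mitochondrial cristae. The median log2 difference was 0.10 for the first list and 0.08 for the second, against 0.021 over all genes tested.

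Of 18 members for transcription and chromatin, 1 was called higher, Mtdh, and 3 lower, Zfp46, Polr2k and Runx3 (background 3.49% higher and 4.47% lower). Runx3, a transcription factor of blood cells, had 125, 118, 110, 101 and 110 CPM in EC KO, against 126, 138, 138, 120 and 140 CPM in Spred1 wt (log2 -0.22, SE 0.0618), and the groups overlapped. Arid1a, a subunit of a chromatin remodelling complex, differed by -0.08 and was not called. Of 21 members for signalling and the cell surface, 2 were called higher, Cdc42 (log2 0.20) and Laptm4b, and 4 lower, among them Laptm5 (-0.42), Fzd6 and Ctnnd2. Cdc42 encodes a GTPase of the actin skeleton and Laptm5 a lysosomal protein of blood cells. Laptm5 was at 470 to 578 CPM in EC KO and 583 to 1050 CPM in Spred1 wt, and the 1050 CPM was in the library with the most mast cell and basophil transcripts. Laptm5 was no longer called without that library, Spred1 wt replicate 3, nor without Spred1 wt replicate 5 or EC KO replicate 2, 3 or 4. It was called in 10 of 20 alternatives, and the call was also lost with a sex covariate, limma voom, the mean of both wild-type groups, the 2 groups alone and libraries without Xist, with log2 differences between -0.52 and -0.26 over all alternatives.

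Of 16 members for the cytoskeleton and trafficking, 1 was called higher, Cep85, and 5 lower, Sh3bgrl3, Vps13b, Snx31, Epb41 and Ece1 (background 3.49% higher and 4.47% lower). Epb41, which encodes protein 4.1 of the membrane skeleton, had 186, 184, 179, 160 and 180 CPM in EC KO, against 196, 210, 232, 219 and 220 CPM in Spred1 wt (log2 -0.26, SE 0.0519). Of 5 members of the ubiquitin system, Ubr4 and Rnf19a were called lower and 0 higher. Ubr4, a ligase that recognises destabilising protein ends, had 377, 352, 328, 298 and 342 CPM in EC KO, against 386, 459, 488, 455 and 494 CPM in Spred1 wt (log2 -0.42, SE 0.0723). Ubr4 shares 26149 bases of its annotated span with Emc1 on the same strand, so that the split of reads between them is uncertain. Over the 160 members, 25 overlap another row of the table, as do 7 of the 42 called, among them the small nucleolar RNA Snora61 (log2 1.06), which lies within Snhg12. The strand setting of the counting was not given in the sources used here.

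The other called members of chromosome 4 were of smaller change or lower level. Higher in EC KO were Rpa2 (log2 0.38), a subunit of the single-stranded DNA binding complex, Pithd1 (0.39), Aim1l (0.96) and Nr0b2 (0.95), an orphan nuclear receptor. Lower were Extl1 (-1.40), a glycosyltransferase of the exostosin family, Aunip (-0.62), a partner of Aurora kinase A, and Paqr7 (-0.48), a membrane progestin receptor. Nr0b2 was at 2.49 to 3.35 CPM in EC KO and 1.11 to 1.85 CPM in Spred1 wt, and its EC KO range stood above all 21 other libraries. Extl1 was at 0.369 to 0.712 CPM in EC KO and 0.852 to 1.8 CPM in Spred1 wt.

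Some differences of like size were not called, and in these the libraries of a group were far apart. Slc30a2, a zinc transporter, had 7.94, 6.43, 0.632, 0.527 and 0.67 CPM in EC KO, against 4.89, 5.51, 19.1, 11.5 and 16.4 CPM in Spred1 wt (log2 -1.80, SE 0.725). Its values were highest in global KO replicate 2 (19.6 CPM), Spred1 wt replicate 3 (19.1 CPM) and HSC KO replicate 2 (17.1 CPM). The same 3 libraries held the highest sums of mast cell and basophil transcripts, 13100, 15900 and 11800 CPM in that order. Lrp12, a lipoprotein receptor relative, and Ankrd33b were highest in the same 3 libraries, at 67.8, 63.9 and 55.5 CPM and at 20.8, 22.9 and 14 CPM. The part of mast cells in these 3 members was not tested. Trnp1 had 8.15, 2.35, 2.19, 0.316 and 0.126 CPM in EC KO, against 0.0644, 0.0475, 0.608, 0.324 and 0.328 CPM in Spred1 wt, with overlapping groups. Without the EC KO libraries Trnp1 would not have met the level condition, so its high values there are no separate result. Rhd, a red cell membrane protein of the Rh group, was highest in EC KO replicate 5 (6.62 CPM) and HSC KO replicate 1 (4.94 CPM), the libraries with the most erythroid transcripts (140 and 381 CPM in sums that include Rhd itself).

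The same EC KO libraries were also set against each of the other groups, which does not make the comparisons independent. Against HSC wt, 44 members were called, 20 higher and 24 lower (background 11.3%, 5.24% higher and 6.02% lower). Against global KO the number was 39 (background 8.67%), and against HSC KO it was 39 (background 8.89%). Of the 29 members of chromosome 4 called against Spred1 wt, 16 were called against all 4 groups. Another 4 of them, Laptm5, Gpn2, Aim1l and Ece1, were called against Spred1 wt alone. Of the 13 on chromosome 15, 7 were called against all 4 groups and 0 against Spred1 wt alone. Polr2k differed by -1.70 against Spred1 wt, -1.63 against HSC wt, -1.68 against global KO and -1.81 against HSC KO. Rida differed by 1.28, 1.27, 1.25 and 1.26 in the same order. Ubxn11 was less even, at 0.91, 0.55, 0.76 and 0.49.

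In EC KO against Spred1 wt, 37 members had groups that did not overlap, 16 with EC KO higher and 21 with EC KO lower (background 5.57%, 2.03% higher and 3.54% lower). In 21 members the 5 EC KO libraries lay wholly above (9 members) or wholly below (12 members) all 21 other libraries, against 1.50% of all genes tested, 0.396% above and 1.11% below. Of these 21, 14 are on chromosome 4 and 7 on chromosome 15. The lower ones were Epb41, Sfn, Sh3bgrl3, Selenon, Rcan3, Nipal3, Zfp46, Ubr4, Vps13b, Polr2k, Snx31 and Fzd6. The higher ones were Snora61, Nr0b2, Zdhhc18, Ubxn11, Ncmap, Fuca1, Laptm4b, Erich5 and Rida. Among these, Ncmap met the level condition for members through EC KO alone.

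**Figure D3:**
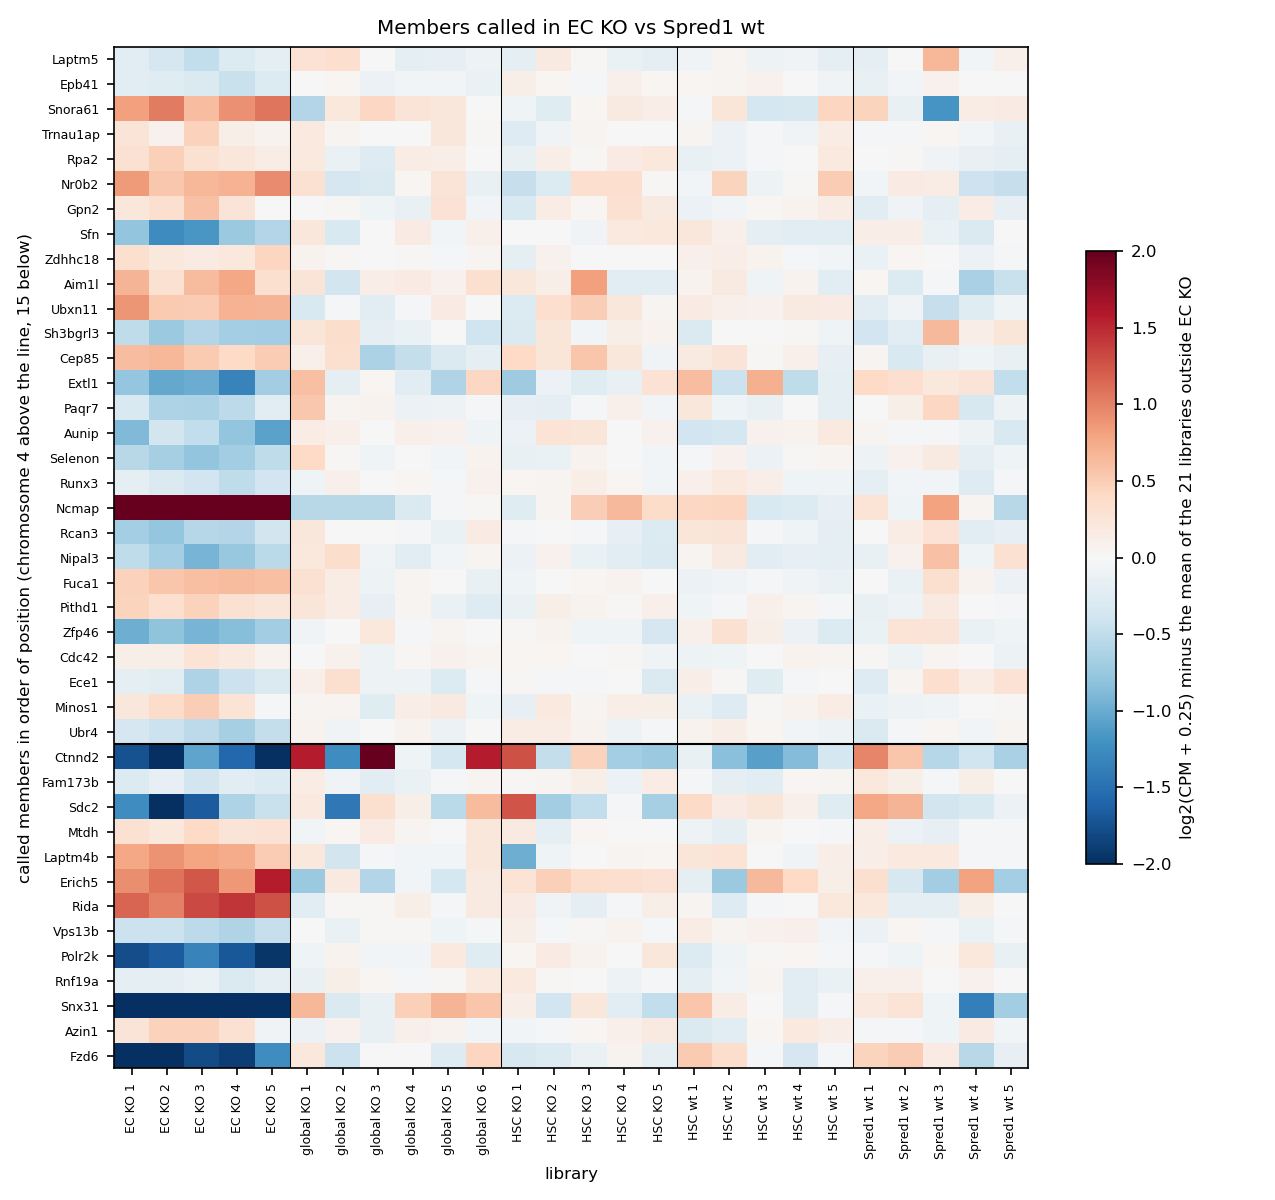
Log2(CPM + 0.25) of the called members (rows, in order of position, 1 of the 42 not shown) in the 26 libraries (columns, by group), minus the mean of the 21 libraries outside EC KO, with colours ending at 2 in either direction. In the 5 EC KO columns, the 19 members called higher are interleaved with members called lower, while the other columns show no block of that kind.

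Members called in EC KO against Spred1 wt were scattered along each stretch among members that were not. They formed 21 runs on chromosome 4, none longer than 3 members, and 10 runs on chromosome 15, none longer than 2. The longest run without a call had 11 members on chromosome 4, Themis2 to Wdtc1, and 6 on chromosome 15, Pabpc1 to Klf10. Of 8 adjacent pairs on chromosome 4 in which both members were called, 3 shared a direction and 5 did not, while the 3 such pairs on chromosome 15 all shared one. Adjacent means next in order among the members, at whatever distance. On chromosome 15, Fam173b and Sdc2 lie 1300 kb apart, Mtdh and Laptm4b 95.6 kb, and Erich5 and Rida 10.1 kb. Rida and Pop1, a subunit of RNase P that starts 0.065 kb from it on the other strand, show how sharply values could differ between neighbours. Pop1 had 45.5, 47.3, 43.7, 55.6 and 24.3 CPM in EC KO, against 29.7, 31.8, 36.8, 44.5 and 37.6 CPM in Spred1 wt, with overlapping groups. Likewise Spag1, 2.52 kb from Polr2k on the same strand, was at 3.69 to 5.3 CPM in EC KO and 2.95 to 4.84 CPM in Spred1 wt.

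Called members lay on both strands. On chromosome 4, 7 of 14 higher and 8 of 15 lower members were on the plus strand, as were 48 of 95 members that were not called. The split was less even on chromosome 15, where 3 of 5 higher and 6 of 8 lower members were on the plus strand. Of the chromosome 15 members that were not called, 8 of 23 were. Median lengths in the deposited table were 2.13 kb for the higher and 4.19 kb for the lower members of chromosome 4, against 3.28 kb for those not called. On chromosome 15 they were 2.37 kb for the higher and 3.72 kb for the lower members, against 3.73 kb for those not called.

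Counting all genes tested in consecutive 10 Mb windows, genes the membership rule leaves out included, 13 of 38 genes (34.2%) were called in the chromosome 15 stretch and 30 of 138 (21.7%) in that of chromosome 4. They ranked 1st and 6th of the 218 windows of the genome with at least 20 genes tested. These shares and ranks restate what chose the stretches. Beside the chromosome 4 stretch the share was 9.47% on the lower side and 9.88% on the higher side, close to the 7.96% of all genes. Beside the chromosome 15 stretch it was 1 of 8 genes on the lower side and 4 of 9 on the higher side. The chromosome 4 stretch was densest between 134 and 136 Mb, where 14 of 39 genes (35.9%) were called, and the chromosome 15 stretch between 34 and 36 Mb had 5 of 11. Chromosome 4 held other dense windows, which lie outside the members. At 30 to 40 Mb, 7 of 21 genes (33.3%) were called. At 40 to 50 Mb it was 22 of 105 genes (21%), a share close to that of the members' stretch on chromosome 4, and this window ranked 9th.

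**Figure D4:**
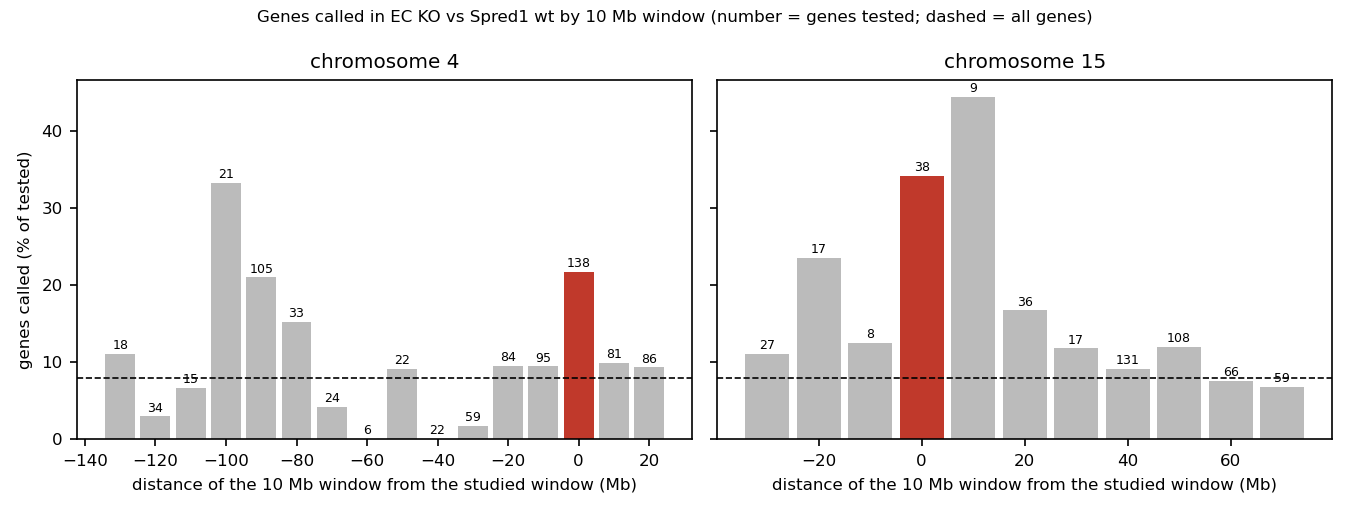
Share of genes called in EC KO against Spred1 wt (vertical axis, %) in 10 Mb windows along chromosomes 4 (left) and 15 (right), by distance from the window of the members (horizontal axis, Mb), with the number of genes tested on each bar. The red bars are the members' windows, chosen by the number of such calls, at 21.7% and 34.2%, and the dashed line is the 7.96% of all genes.

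HSC KO against HSC wt uses none of the libraries that chose the stretches and can be tested. Global KO against Spred1 wt and HSC wt against Spred1 wt reuse the Spred1 wt libraries that did. In HSC KO against HSC wt, edgeR called 0 of the 160 members (background 0.0224%), and DESeq2 also called 0. At an unadjusted p under 0.05 there were 2 members, against 2.16% of all genes. In global KO against Spred1 wt, both tools called 0 members (background 0.0747%), with 8 members under an unadjusted p of 0.05, against 5.53% of all genes. In the difference between the effects of HSC KO and global KO, edgeR called 0 members (background 0.0149%), with 1 under an unadjusted p of 0.05, against 2.14% of all genes. A p that misses the threshold does not show that the levels were alike.

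Members with large differences in EC KO are given here with their values in global KO against Spred1 wt and HSC KO against HSC wt. Polr2k differed by -0.02 (SE 0.106) in global KO and 0.17 in HSC KO, and Rida by 0.03 and 0.01. Fzd6 differed by -0.11 in global KO and -0.29 in HSC KO, Zfp46 by -0.03 and -0.10, and Fuca1 by 0.02 and 0.10. Ncmap, with 5 reads in all global KO libraries and 14 in all Spred1 wt libraries, was too low for its difference to be read. Ctnnd2, lower in EC KO, differed by 1.01 (SE 0.581) in global KO and 1.01 (SE 0.629) in HSC KO. Snx31, also lower in EC KO, differed by 0.66 (SE 0.355) in global KO and -0.25 (SE 0.368) in HSC KO. Neither gene was called in either comparison. The members of smallest p in HSC KO against HSC wt were Col16a1, a collagen, Clic4, a chloride channel protein, and Rnf19a. Col16a1 had 21.2, 20.7, 20.5, 20.6 and 15 CPM in HSC KO, against 39.7, 32.6, 25.3, 20.3 and 26.4 CPM in HSC wt (log2 -0.55, SE 0.184, adjusted p 0.999, edgeR), with overlapping groups. Dap was the 1 member whose HSC KO and HSC wt values did not overlap (background 0.538%), and no member's global KO and Spred1 wt values were apart (background 0.321%).

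In global KO the smallest p were those of Kdm1a, Sh2d5 and Hspg2. Kdm1a, a histone demethylase, was at 110, 118 and 128 CPM (lowest, median and highest) in global KO, against 112, 121, 106, 104 and 95.6 CPM in Spred1 wt (log2 0.15, SE 0.0552, adjusted p 0.665, edgeR). Hspg2, the basement membrane proteoglycan perlecan, was at 0.484 to 1.24 CPM in global KO and 0.58 to 4.64 CPM in Spred1 wt, and 4.64 CPM was again in Spred1 wt replicate 3. Sh2d5 differed by 0.24 and overlaps Kif17 by 10558 bases on the same strand.

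The 2 wild-type groups, which differ by the poly(I:C) injections as far as the labels say, were compared in the same way. HSC wt against Spred1 wt gave 0 called members with edgeR (background 0.0299%) and 0 with DESeq2, and 10 members under an unadjusted p of 0.05, against 6.35% of all genes. The member of smallest p was E2f2, a transcription factor of the cell cycle, with 26.4, 30.1, 30.7, 32 and 32.6 CPM in HSC wt, against 41.9, 47.9, 42, 36.1 and 43.8 CPM in Spred1 wt (log2 -0.48, SE 0.13, adjusted p 0.328, edgeR). E2f2, Ubxn11 and Emc1 were the 3 members whose values did not overlap between these groups (background 1.95%). Ubxn11 was at 10.2 to 10.9 CPM in HSC wt and 6.91 to 9.12 CPM in Spred1 wt (log2 0.36, SE 0.121, adjusted p 0.549, edgeR).

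The sizes of the differences are given for each comparison, and those of EC KO against Spred1 wt restate what chose the stretches. The median absolute log2 difference over the 160 members was 0.215 in EC KO against Spred1 wt, beside 0.159 over all genes tested, and 0.260 over the chromosome 15 members alone. It was 0.084 in global KO against Spred1 wt, beside 0.081 over all genes, and 0.072 in HSC KO against HSC wt, beside 0.078. Between the wild-type groups it was 0.088, beside 0.090 over all genes. In EC KO against Spred1 wt, 14 members (8.75%) differed by more than 1 on the log2 scale, against 4.11% of all genes, and 8 of these 14 were on chromosome 15. The signed median over the members was -0.006 in that comparison, and 0.021 over all genes.

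**Figure D5:**
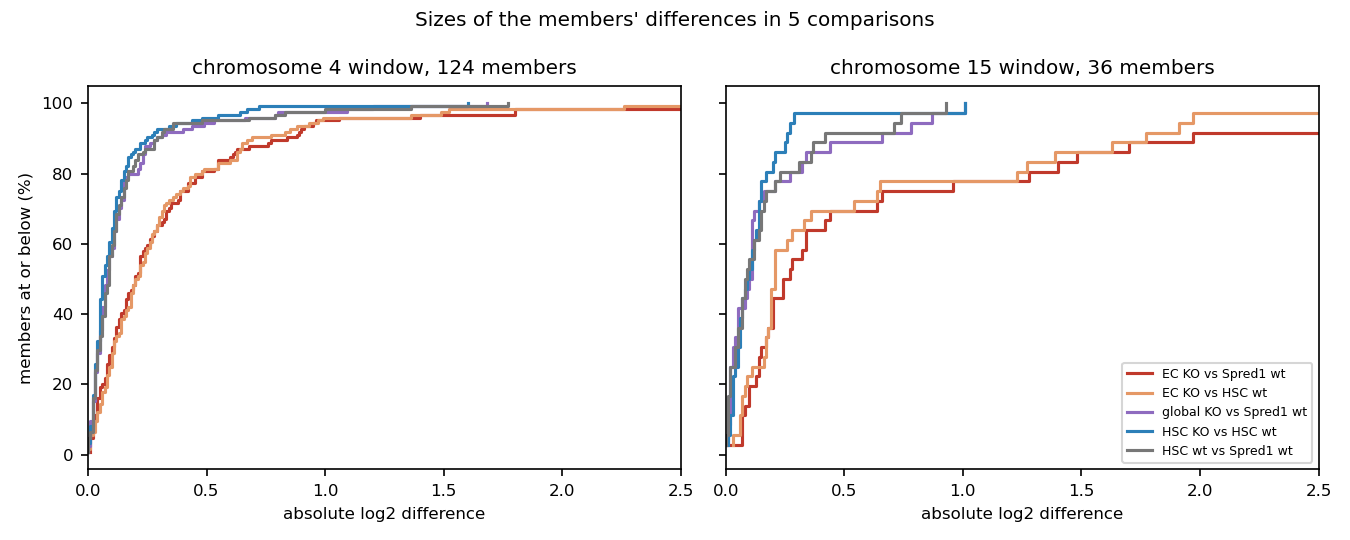
Share of members (vertical axis, %) at or below a given absolute log2 difference (horizontal axis, shown up to 2.5) for 5 comparisons, on chromosome 4 (left, 124 members) and chromosome 15 (right, 36 members). The curves of the comparisons with EC KO lie to the right of the others, with a median over all 160 members of 0.215 in EC KO against Spred1 wt, 0.084 in global KO against Spred1 wt and 0.072 in HSC KO against HSC wt.

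Sums of other cell type markers moved between groups in their own ways. Macrophage transcripts summed to 67.3 to 299 CPM in EC KO and 113 to 280 CPM in Spred1 wt, mature neutrophil transcripts to 158 to 772 and 37.8 to 805 CPM, and endothelial transcripts to 188 to 275 and 198 to 267 CPM. Of the 9 marker lists, 1 of 8 LSK markers (Kit) and 1 of 10 mast cell and basophil markers (Mcpt4, log2 -3.74) were called in EC KO against Spred1 wt, and 0 in the other lists. The mast cell and basophil list did not move as 1. Cma1 (-2.40), Tpsb2 (-2.14), Tpsab1 (-2.06), Cpa3 (-1.85), Fcer1a (-1.02) and Gata2 (-0.40) also differed downward without a call. Mcpt8 (1.10) and Prss34 (1.16) differed upward and Ms4a2 by 0.00, likewise without a call. The part of cell composition in the members' differences was not tested.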

How the data were processed

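Whole-number gene counts of 26 LSK libraries were deposited by the authors as 1 table without normalization. The tools named in the submitters' processing notes are edgeR 3.28.1, HTSeq 0.6.0, STAR 2.6.0 and bcl2fastq 2.18.0.12, and the build is mm10. Annotation and strand setting are not given in the sources used here. All columns were mapped by title, 0 other sample columns were left, and 0 pairs of columns were identical. Coordinates and lengths are those of the table.

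Using R 4.3.3, edgeR 4.0.16 fitted all 26 libraries in 1 quasi-likelihood model of the 5 group means (TMM, filterByExpr with minimum count 10, robust, 21 residual degrees of freedom, biological coefficient of variation 0.205), testing 13379 genes, two-sided, with Benjamini-Hochberg adjustment over all of them. CPM use TMM-scaled library sizes and log2 values a prior count of 2. The SE of a log2 difference comes from the same model. Total counts and the number of libraries limit precision. DESeq2 1.42.0, limma 3.58.1, Python 3.11.15, NumPy 2.4.6, pandas 2.3.3 and matplotlib 3.10.9 were also used. On simulated data with planted changes the same fit was tested first. Rows wider than 1 Mb were left out of the overlap count.

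The members, functional lists and marker lists were chosen with earlier results of these data known. The rule for named genes took, per stretch, the 10 members of largest difference with a mean of at least 5 CPM, up to 15 called members, the 3 of smallest p in comparisons without calls, the highest-level members of each functional list and the members beside called runs. The other called members, Rhd, Dap, Nr0b2 and the genes named for position were picked with their values in view, and so was the narrowing of the 91 genes taken. Alternatives were RLE and upper-quartile normalization, no filter, a CPM filter, DESeq2, limma voom with sample weights, a sex covariate, the compared groups only, the mean of both wild-type groups, 2 CPM as level minimum, and each library left out in turn. A fit of libraries without Xist was added after seeing the data. A called member of chromosome 4 is not reported here, though it stayed in every fit and count.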

Additional observations from a re-analysis of the deposited data

Results flagged for a closer look

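A value was singled out when the highest or lowest library of a group lay far from the rest by Dixon's criterion. Chance gives this in about 1 in 20 groups, and 12 of 240 groups met it, 48 named members in 5 groups each. In global KO replicate 2, Slc30a2 was at 19.6 CPM (other global KO libraries 2.42 to 5.4), Lrp12 at 67.8 CPM (17.9 to 33.4) and Ankrd33b at 20.8 CPM (3.2 to 5.51). Ankrd33b was also at 14 CPM in HSC KO replicate 2, where the other HSC KO libraries had 4.01 to 6.6 CPM. In HSC KO replicate 1, Laptm4b was at 14.1 CPM (26.3 to 29 in the others) and Sdc2 at 6.86 CPM (1.57 to 2.63). Kdm1a was at 129 CPM in HSC KO replicate 3 (121 to 123) and Col16a1 at 15 CPM in HSC KO replicate 5 (20.5 to 21.2). Selenon was at 96.5 CPM in global KO replicate 1 (68.3 to 76.3). Among the EC KO libraries only Epb41 met the criterion, at 160 CPM in replicate 4 (179 to 186). In Spred1 wt, Laptm5 was at 1050 CPM in replicate 3 (583 to 713) and Azin1 at 227 CPM in replicate 4 (189 to 199).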

How the results depend on the processing

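No paired analysis was possible because the running numbers in the labels are shared by no 2 samples. For EC KO against Spred1 wt, 42 members were called, beside 7.96% of all genes tested, and 26 in a fit of those 2 groups alone (2.57% of all genes), which estimates the spread from fewer libraries. Among the other alternatives, 33 were called with a sex covariate (4.75%), 33 in libraries without Xist (5.88%, added after seeing the data), 48 by DESeq2 (11.5%) and 51 against the mean of both wild-type groups (15.3%). Leaving out 1 library gave 30 (without EC KO replicate 3, 3.59% of all genes) to 52 (without EC KO replicate 5, 14%). For EC KO against HSC wt, with 44 called, leaving out 1 library gave 30 (without EC KO replicate 3, 5.53% of all genes, and without HSC wt replicate 1, 6.55%) to 54 (without EC KO replicate 5, 15.6%). In global KO against Spred1 wt the count was 0 to 1 when 1 library was left out: without global KO replicate 2, Ankrd33b was called (log2 -1.56, adjusted p 0.0357, edgeR, against -0.87 and 0.897 with it). In HSC KO against HSC wt and HSC wt against Spred1 wt it was 0 in every alternative run. A level minimum of 2 CPM left 149 members. Gene by gene, alternatives were followed for 48 named members in EC KO against Spred1 wt and for 10 called members against HSC wt. None of the called ones among them changed sign. The other called members were not followed in this way. Members of few reads, such as Snx31, Ctnnd2, Erich5 and Extl1, are limited by depth.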
